A study of Mus musculus with 8 samples.

Results

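The genes of protein entry into the endoplasmic reticulum (ER) were followed in mouse plasma cells that lacked Blimp1 or Xbp1. A list of 36 genes was matched by symbol in the count table of 27179 genes, and all 36 were found and had enough reads to be tested. They comprise 8 genes of signal recognition (Srp9, Srp14, Srp19, Srp54a, Srp68, Srp72, Srpr and Srprb), 10 of the channel (Sec61a1, Sec61b, Sec61g, Sec62, Tram1, Tram2 and Ssr1 to Ssr4), 6 of signal peptide cleavage (Sec11a, Sec11c, Spcs1, Spcs2, Spcs3 and Hm13), 9 of the ER membrane protein complex (EMC) and 3 of tail-anchor insertion (Asna1, Wrb and Camlg). Hm13 and Camlg stand in the files under the symbols H13 and Caml. RNA was sequenced from bone marrow plasma cells of C57BL/6 mice, sorted directly from the animal as cells positive for a Blimp1-GFP reporter and for CD138. There were 2 Blimp1-/- libraries (Blimp1KO) with WT replicates 1 and 2 in batch 1, and 2 Xbp1-/- libraries (Xbp1KO) with WT replicates 3 and 4 in batch 2. Every group thus carried the strain and the sort in common, and each knockout was set against wild type of its own batch. The names of the deposited files mark both groups of batch 2 with CreER, the usual name of a Cre recombinase that tamoxifen switches on. The WT of that batch thus carries the mark too, and Xbp1KO is also marked fl. In batch 1 the names hold plus_minus and pos_neg for WT, and fl_minus and neg for Blimp1KO. The genotypes behind these marks are not stated, so WT and knockouts are named here by their labels. The animals' age, any tamoxifen treatment, the exons deleted and the promoter of a recombinase are not given in the sources used here.

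Most secreted and membrane proteins enter the ER while they are being made. The signal recognition particle binds the signal sequence as it leaves the ribosome and hands the ribosome to its receptor, the Sec61 channel lets the chain through with the help of TRAM and the translocon-associated protein (TRAP) complex, and the signal peptidase cuts off the signal sequence. Proteins with awkward membrane segments use the EMC, and proteins anchored by their last segment are carried by Asna1 to the Wrb and Camlg receptor, while plasma cells are known for sending very large amounts of antibody through the Sec61 route.

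Total counts ran from 44012152 to 145411827 reads per library. Immunoglobulin genes took 55.4% and 58.4% of the counts in Blimp1KO, against 75.7% and 75.6% in WT of batch 1, and 30.0% and 25.2% in Xbp1KO, against 69.7% and 64.8% in WT of batch 2. CPM is the usual scaling of a gene's reads to the size of its library, here with library sizes adjusted by TMM, a method that brings the bulk of genes to the same level between libraries. All 10 plasma cell markers checked were detected in every library, and their summed level was 58890 and 72600 CPM in Blimp1KO, against 119100 and 110700 CPM in WT of batch 1. In Xbp1KO that level was 40740 and 32660 CPM, against 68080 and 50340 CPM in WT of batch 2. Most of it is 1 gene, Jchain, which had 54780 and 67400 CPM in Blimp1KO, against 112200 and 103900 CPM in WT of batch 1. In Xbp1KO Jchain had 36320 and 29070 CPM, against 62640 and 45490 CPM in WT of batch 2. Not every marker was lower: Cd28 had 283.2 and 208.7 CPM in Xbp1KO, against 197.0 and 128.8 CPM in WT of batch 2, and Prdm1 and Sdc1 were also above WT there. Mzb1 had 279.2 and 270.9 CPM in Xbp1KO, against 1128 and 1005 CPM in WT of batch 2. In Blimp1KO Mzb1 had 1125 and 1809 CPM, against 1637 and 1560 CPM in WT of batch 1, which overlap, as did Tnfrsf17 and Ly6k. At an edgeR adjusted p under 0.05, 1 of the 10 was lower in Xbp1KO and 0 in Blimp1KO, where 5.06% and 0.285% of all genes tested were. None was higher, where 2.63% and 0.577% of all genes tested were. Markers of mature B cells, 10 of 10 found and none at 0, summed to 1061 and 1466 CPM in Blimp1KO, against 525.2 and 502.2 CPM in WT of batch 1. The same sum was 762.0 and 714.6 CPM in Xbp1KO, against 472.3 and 410.4 CPM in WT of batch 2, and its part in the results below was not tested. In Xbp1KO most of that difference is Cd79b, at 594.8 and 532.5 CPM in Xbp1KO, against 310.9 and 282.9 CPM in WT of batch 2, while Ms4a1 had 108.5 and 76.29 CPM in Xbp1KO, against 105.8 and 70.09 CPM in WT of batch 2, which overlap. In Blimp1KO Ms4a1 had 285.4 and 240.2 CPM, against 108.4 and 85.81 CPM in WT of batch 1, and Spib had 156.5 and 197.4 CPM in Blimp1KO, against 5.783 and 7.224 CPM in WT of batch 1. Cd79b, the largest part of the sum, had 535.9 and 910.6 CPM in Blimp1KO, against 375.9 and 371.5 CPM in WT of batch 1. Cr2 went the other way, at 0.587 and 0.581 CPM in Blimp1KO, against 0.975 and 1.995 CPM in WT of batch 1. At an edgeR adjusted p under 0.05, 1 of these 10 was higher and 0 lower in each knockout, where 0.577% of all genes tested were higher in Blimp1KO and 2.63% in Xbp1KO. Xbp1, the gene targeted in Xbp1KO, had 1302 and 1105 CPM in Xbp1KO, against 2129 and 2203 CPM in WT of batch 2. Prdm1, which encodes Blimp1, had 242.7 and 175.9 CPM in Blimp1KO, against 301.4 and 306.3 CPM in WT of batch 1. Neither targeted gene passed the test in its own knockout (edgeR's quasi-likelihood test, adjusted p = 0.0939 for Xbp1 and 0.401 for Prdm1), and counts over a whole gene do not show whether some of its exons are missing. Prdm1 had 447.4 and 321.6 CPM in Xbp1KO, against 259.5 and 236.8 CPM in WT of batch 2. Sdc1, which encodes the sorting marker CD138, had 639.0 and 534.5 CPM in Xbp1KO, against 394.7 and 308.9 CPM in WT of batch 2. In Blimp1KO Sdc1 had 376.0 and 408.0 CPM, against 584.4 and 540.3 CPM in WT of batch 1, and it was called in neither knockout.

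In Xbp1KO plasma cells 5 of 8 signal recognition genes and 5 of 10 channel genes fell, beside 1 of 9 genes of the EMC. Of the 36 genes, 14 fell and 1 rose at a Benjamini-Hochberg adjusted p under 0.05 in edgeR's quasi-likelihood test over 15073 genes, where 7.7% of all genes tested were called, 5.06% lower and 2.63% higher. The signal recognition genes that fell were Srp9, Srp54a, Srp68, Srpr and Srprb, and the channel genes were Sec61a1, Sec61b, Tram1, Ssr3 and Ssr4. Also lower were 2 of 6 peptidase genes (Spcs2 and Spcs3), 1 of 9 EMC genes (Emc9) and 1 of 3 tail-anchor genes (Wrb). Emc1 rose. The median log2 fold change was -0.95 in signal recognition, -1.59 in the channel, -0.34 in the peptidase group, 0.19 in the EMC and -0.12 in the tail-anchor group, beside 0.08 over all genes tested and -0.48 over all 36. Both Xbp1KO libraries lay below both WT libraries for 26 of the 36 genes and above both for 7, where 25.8% and 31.8% of all genes tested did so.

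The summed level of each group of genes was taken in every library. Signal recognition summed to 408.8 and 354.9 CPM in Xbp1KO, against 855.2 and 771.2 CPM in WT of batch 2. The channel summed to 1049 and 939.7 CPM in Xbp1KO, against 2416 and 2247 CPM in WT of batch 2. Peptidase genes summed to 1606 and 1401 CPM in Xbp1KO, against 2100 and 1939 CPM in WT of batch 2. These sums did not overlap between the groups, and the ratio of Xbp1KO to WT means was 0.469 for signal recognition, 0.427 for the channel and 0.744 for the peptidase genes. The EMC summed to 211.5 and 192.9 CPM in Xbp1KO, against 197.0 and 187.7 CPM in WT of batch 2, which overlap. Tail-anchor genes summed to 36.98 and 36.79 CPM in Xbp1KO, against 44.18 and 41.87 CPM in WT of batch 2, which do not overlap either, at a ratio of 0.857. In bulk RNA, fewer cells of a type and less RNA per cell cannot be told apart.

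**Figure D1:**
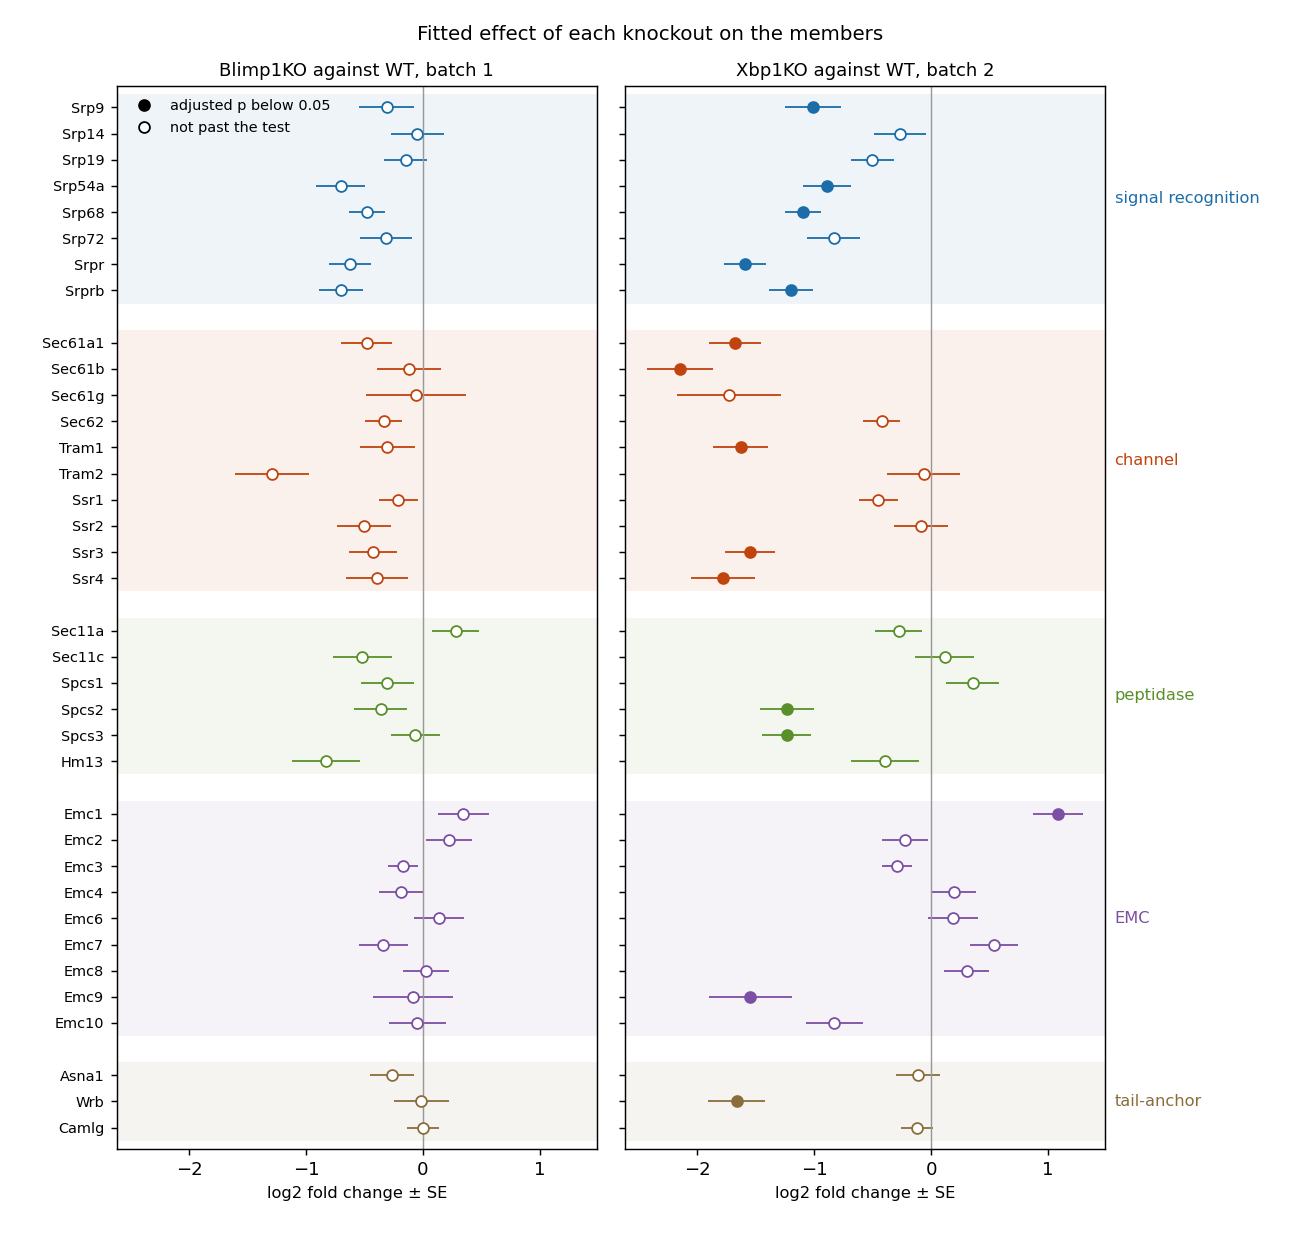
Log2 fold change of the 36 genes (horizontal axis) with its standard error as bars, by group of genes, for Xbp1KO and for Blimp1KO against WT of the same batch (n = 2 libraries each); filled points passed the test. In Xbp1KO the channel genes reach -2.15 (Sec61b) and the EMC spans -1.55 (Emc9) to 1.08 (Emc1), while no Blimp1KO point is filled.

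These calls depended on single libraries. Without Xbp1KO replicate 1 the test called 4 of the 36 genes (Sec61a1, Sec61b, Srpr and Ssr3), without Xbp1KO replicate 2 it called 0, without WT replicate 3 it called 1 (Wrb) and without WT replicate 4 it called 3 (Sec61a1, Sec61b and Srpr), while all 15 kept their direction in every one of these fits. Without WT replicate 1 or WT replicate 2, which only inform the spread, 9 were called in each case. Of the calls nearest the threshold, Srp54a and Emc9 were lost without the low-count filter or with only the libraries of batch 2 in the fit, Srp54a also against all 4 WT libraries pooled, Srp9 with immunoglobulin genes left out before scaling, and Srp54a and Emc1 with limma on the deposited FPKM. Srp9, Srp54a and Emc9 were also lost with a replicate block in batch 2 by the numbers in the file names. Other genes were gained as calls: DESeq2 added Ssr1, Sec62, Srp72, Sec61g and Emc10. Sec61g was also added without the low-count filter, with pooled WT, with FPKM and with that block. Srp72 was added with the libraries of batch 2 alone, with pooled WT and with FPKM, and Emc10 without the filter and with batch 2 alone. Within batch 2, RNA of other cells was high in Xbp1KO replicate 2 and WT replicate 4, the libraries with the lower totals. The summed level of 10 neutrophil and monocyte markers was 2.43 and 1375 CPM in Xbp1KO replicates 1 and 2, against 5.64 and 580.6 CPM in WT replicates 3 and 4, with none of the 10 at 0. All libraries of batch 1 held such RNA too, at 465.2 and 249.7 CPM in Blimp1KO, against 306.2 and 404.3 CPM in WT of batch 1. With Xbp1KO replicate 2 and WT replicate 4 both left out the test called 0 of the 36 genes, and the median was -1.56 over the channel and -1.01 over signal recognition. Each group of batch 2 then has 1 library, assumed to vary like those of batch 1. Erythroid and megakaryocyte markers, 7 of 8 found in the table, summed to 5.11 and 448.5 CPM in Xbp1KO, against 14.6 and 134.7 CPM in WT of batch 2. The part of these other cells in the result was not tested.

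Since several signal recognition and channel genes fell, the bases before their transcription starts are shown. RefSeq promoters of GRCm38.p6 (250 bases before to 50 after the start) were matched to 26 of the 36 genes, giving 27 windows. Shown are the 250 bases before the start, 5′ to 3′ on the gene's strand, of Srpr at chr9:35210953-35211202 (plus strand), Srprb at chr9:103202066-103202315 (minus), Ssr3 at chr3:65392554-65392803 (minus), Sec61b at chr4:47474411-47474660 (plus) and Ssr1 at chr13:37994209-37994458 (minus). The first 4 fell in Xbp1KO and Ssr1 did not pass edgeR's test, though DESeq2 called it lower. Capitals mark ACGTG, the core of the sequence that XBP1 is known to bind, on either strand, where the other strand reads CACGT.
Srpr: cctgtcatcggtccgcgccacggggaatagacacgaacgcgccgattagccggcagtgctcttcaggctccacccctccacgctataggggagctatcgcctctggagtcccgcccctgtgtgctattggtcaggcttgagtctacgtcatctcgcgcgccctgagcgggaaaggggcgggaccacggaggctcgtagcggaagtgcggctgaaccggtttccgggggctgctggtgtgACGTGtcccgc
Srprb: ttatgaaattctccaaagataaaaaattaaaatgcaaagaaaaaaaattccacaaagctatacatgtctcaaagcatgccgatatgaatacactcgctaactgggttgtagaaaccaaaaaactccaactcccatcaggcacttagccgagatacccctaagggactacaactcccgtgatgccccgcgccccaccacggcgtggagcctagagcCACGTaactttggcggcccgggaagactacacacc
Ssr3: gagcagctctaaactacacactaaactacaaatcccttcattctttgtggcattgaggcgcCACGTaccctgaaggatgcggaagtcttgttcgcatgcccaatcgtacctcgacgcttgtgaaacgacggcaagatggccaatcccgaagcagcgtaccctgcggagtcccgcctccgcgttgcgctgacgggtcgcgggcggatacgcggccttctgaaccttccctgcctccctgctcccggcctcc
Sec61b: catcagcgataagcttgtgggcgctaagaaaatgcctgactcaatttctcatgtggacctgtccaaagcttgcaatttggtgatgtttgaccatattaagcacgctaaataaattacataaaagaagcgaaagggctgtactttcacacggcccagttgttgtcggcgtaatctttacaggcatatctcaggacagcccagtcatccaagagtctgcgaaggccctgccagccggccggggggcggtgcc
Ssr1: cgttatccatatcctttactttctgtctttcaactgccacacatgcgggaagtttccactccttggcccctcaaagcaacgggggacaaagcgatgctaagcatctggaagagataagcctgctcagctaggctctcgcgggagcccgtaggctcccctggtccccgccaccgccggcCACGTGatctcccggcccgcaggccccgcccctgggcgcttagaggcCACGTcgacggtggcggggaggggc
Srpr has its match 11 bases before the start, Srprb 35 before and Ssr3 189 before, counted to the first base of the match. Sec61b, the gene with the lowest fold change, has none in its window, and Ssr1 has 3, of which 2 overlap as CACGTG. Across the windows, ACGTG stood on at least 1 strand in 13 of 27 (48.1%), in 5 of 10 windows of genes that fell in Xbp1KO and in 8 of 17 windows of the others. The windows of Emc10, among the others, overlap and hold the same match, which is counted in each. The share was 24.7% over the promoters of all genes tested and 31.9% over those of all tested genes that fell in Xbp1KO. The longer TGACGTGG was in 0 of 27 windows, beside 0.82% of promoters of tested genes, and the ER stress element (CCAAT, 9 bases of any kind, then CCACG) in 0 of 27, beside 0.13%. All motifs were searched on both strands, and every TGACGTGG holds an ACGTG. A match describes letters in the window and is no record of binding.

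The signal recognition particle is an RNA with proteins of which Srp54 reads the signal sequence, Srp9 and Srp14 pause the ribosome, Srp19 helps the RNA fold, and Srp68 and Srp72 form a pair that holds the particle together. Srp68 (Entrez 217337, chromosome 11, 116245166 to 116274217) had 46.31 and 42.66 CPM in Xbp1KO, against 94.55 and 95.47 CPM in WT of batch 2, with a log2 fold change of -1.09 ± 0.15 (SE throughout for log2 fold changes, edgeR adjusted p = 0.00938). The groups were far apart compared with the gap between libraries of a group. Its partner Srp72 had 99.45 and 76.62 CPM in Xbp1KO, against 160.9 and 153.2 CPM in WT of batch 2, with no overlap but an adjusted p of 0.0726 (log2 fold change -0.83 ± 0.22). Srp9 had 35.85 and 28.72 CPM in Xbp1KO, against 70.32 and 59.81 CPM in WT of batch 2, a log2 fold change of -1.01 ± 0.24 (edgeR adjusted p = 0.0490). Its partner in the pausing domain moved less: Srp14 had 48.76 and 42.34 CPM in Xbp1KO, against 58.66 and 51.09 CPM in WT of batch 2 (log2 fold change -0.27 ± 0.22, edgeR adjusted p = 0.534), the smallest change of this group. Srp19, at 20.57 and 22.31 CPM in Xbp1KO, against 32.06 and 28.70 CPM in WT of batch 2, did not pass the test (log2 fold change -0.50). Srp54a had 4.49 and 4.80 CPM in Xbp1KO, against 9.53 and 7.70 CPM in WT of batch 2, with a log2 fold change of -0.89 ± 0.21 (edgeR adjusted p = 0.0485). Mouse has near-identical copies Srp54b and Srp54c, between which the counting may divide reads, so the value for any single copy is uncertain. Srp54c also fell, to 21.9 and 19.7 CPM in Xbp1KO, against 51.0 and 40.1 CPM in WT of batch 2, and Srp54b, named after its value was seen, did not pass the test (log2 fold change -1.67, adjusted p = 0.0517).

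The receptor that takes the ribosome at the ER membrane is a pair of GTPases, the Srpr subunit that meets the particle and the membrane-spanning Srprb. Srpr (Entrez 67398, chromosome 9, 35211203 to 35217003) had 99.87 and 89.57 CPM in Xbp1KO, against 305.4 and 266.2 CPM in WT of batch 2. Its level in Xbp1KO was 33.2% of that in WT, with a log2 fold change of -1.59 ± 0.18 and the smallest adjusted p among the 36 genes (edgeR, 0.00511). Srprb (Entrez 20818, chromosome 9, 103188033 to 103202065) had 53.47 and 47.87 CPM in Xbp1KO, against 123.9 and 109.1 CPM in WT of batch 2. Its log2 fold change was -1.20 ± 0.19 (edgeR adjusted p = 0.0141), so both subunits of the receptor, whose promoters are printed above, fell.

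Sec61 is a pore made of the large Sec61a1 subunit and the small Sec61b and Sec61g subunits. Sec61a1 (Entrez 53421, chromosome 6, 88503607 to 88518800) had 167.1 and 147.4 CPM in Xbp1KO, against 527.5 and 480.7 CPM in WT of batch 2. The groups did not overlap, at a log2 fold change of -1.68 ± 0.22 (edgeR adjusted p = 0.00789). Sec61b (Entrez 66212, chromosome 4, 47474661 to 47483233) had 13.83 and 12.33 CPM in Xbp1KO, against 60.33 and 55.40 CPM in WT of batch 2. It had the largest fall of the 36 genes, to 22.6% of the WT level (log2 fold change -2.15 ± 0.28, edgeR adjusted p = 0.00789). Sec61g had 0.561 and 0.884 CPM in Xbp1KO, against 1.73 and 3.04 CPM in WT of batch 2, from 82 to 211 reads per library, and did not pass the test (log2 fold change -1.73 ± 0.44, edgeR adjusted p = 0.0647). All 3 subunits thus had estimates of -1.68 or lower, of which 2 were called. Sec62, which serves short proteins that enter after their synthesis, had 101.2 and 95.55 CPM in Xbp1KO, against 129.9 and 134.0 CPM in WT of batch 2, a log2 fold change of -0.42 that did not pass the test (adjusted p = 0.159).

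Tram1 and Tram2 are related membrane proteins beside the pore, of which Tram1 touches many signal sequences and Tram2 is best known for collagen synthesis. Tram1 (Entrez 72265, chromosome 1, 13564693 to 13589910) had 129.8 and 107.5 CPM in Xbp1KO, against 398.6 and 336.0 CPM in WT of batch 2, with a log2 fold change of -1.63 ± 0.24 (edgeR adjusted p = 0.0113). Tram2 had 84.99 and 68.98 CPM in Xbp1KO, against 81.72 and 79.15 CPM in WT of batch 2, which overlap (log2 fold change -0.06 ± 0.31, adjusted p = 0.932). It had the highest estimate of the channel group. The TRAP complex, which helps weak signal sequences open the pore, divided in the same way. Ssr3 (Entrez 67437, chromosome 3, 65379657 to 65392553), its gamma subunit, had 180.8 and 155.5 CPM in Xbp1KO, against 506.4 and 477.4 CPM in WT of batch 2 (log2 fold change -1.55 ± 0.21, edgeR adjusted p = 0.00882). Ssr4 (Entrez 20832, chromosome X, 73787023 to 73790828), its delta subunit, had 121.4 and 109.8 CPM in Xbp1KO, against 411.6 and 383.8 CPM in WT of batch 2 (log2 fold change -1.78 ± 0.27, edgeR adjusted p = 0.0134). Both fell about as far as the pore. Ssr1, the alpha subunit, had 124.7 and 115.5 CPM in Xbp1KO, against 163.6 and 165.5 CPM in WT of batch 2, a log2 fold change of -0.45 ± 0.17 that did not pass the test (adjusted p = 0.157). Ssr2, the beta subunit, had 124.8 and 126.2 CPM in Xbp1KO, against 134.4 and 132.0 CPM in WT of batch 2 (log2 fold change -0.09 ± 0.23, adjusted p = 0.863).

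**Figure D2:**
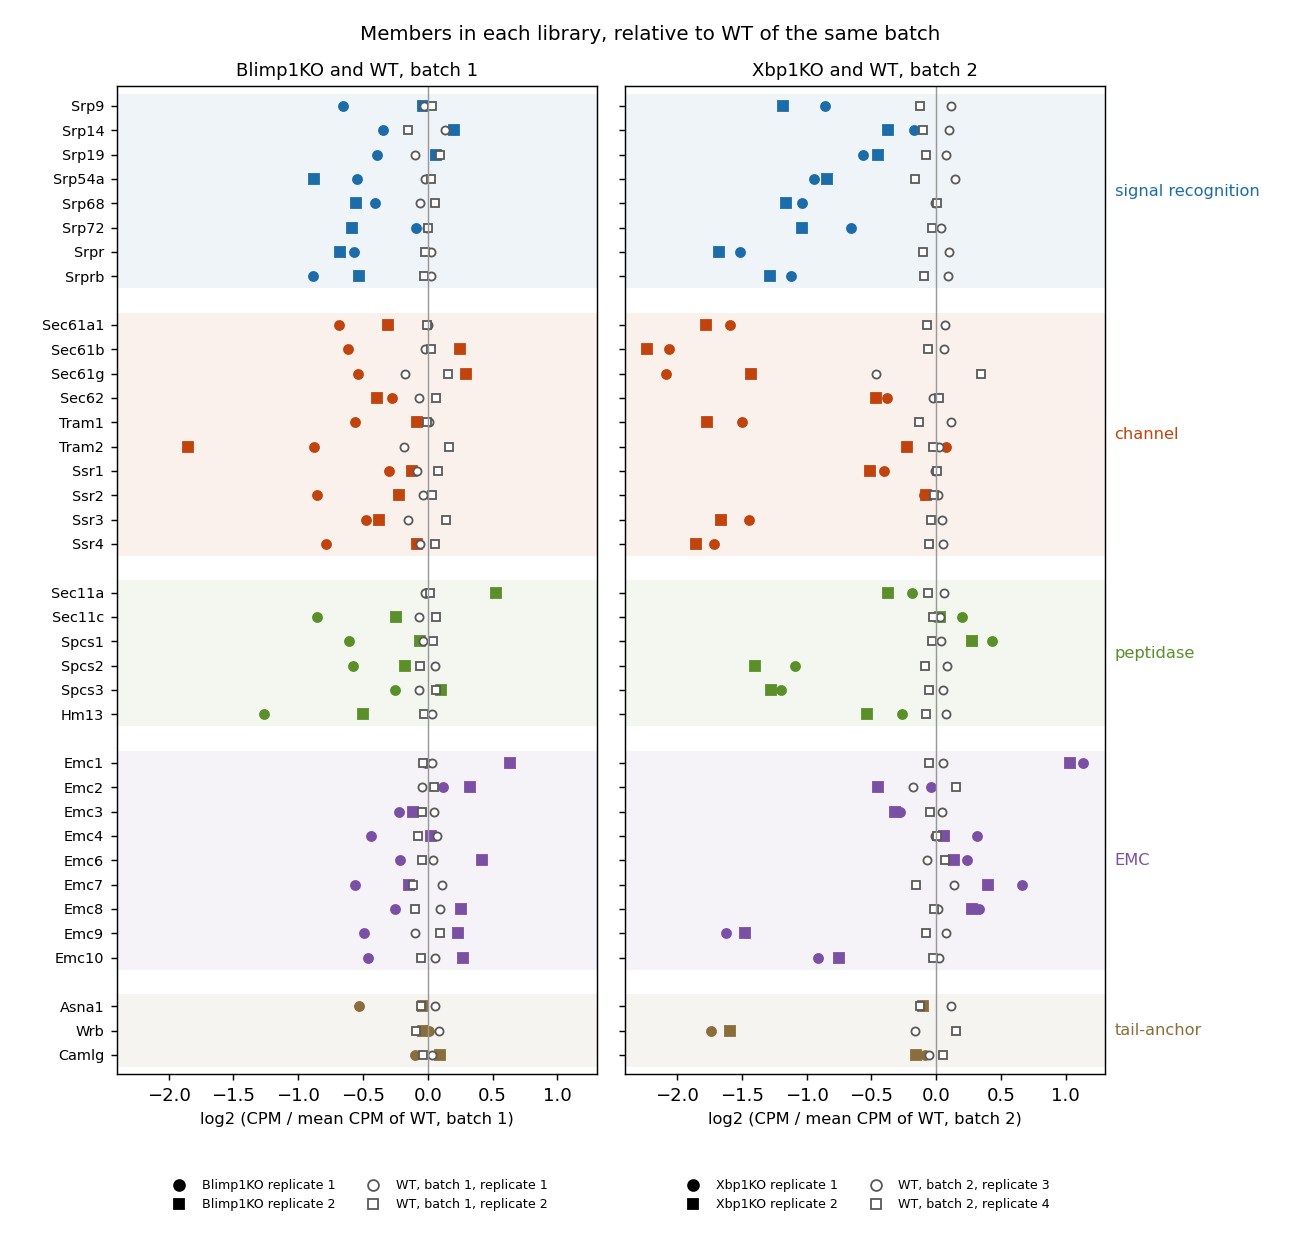
Level of each of the 36 genes in every library, for each knockout and the WT of its batch, drawn as the log2 ratio of its CPM to the mean CPM of that WT. For Sec61b the Xbp1KO libraries had 13.83 and 12.33 CPM, below the WT libraries of batch 2 at 60.33 and 55.40 CPM, while the Tram2 points of these groups overlap.

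The signal peptidase complex cuts with a catalytic subunit, Sec11a or Sec11c, held by the accessory subunits Spcs1, Spcs2 and Spcs3, of which Spcs3 is needed for cleavage in yeast. Spcs3 (Entrez 76687, chromosome 8, 54520433 to 54529998) had 193.2 and 183.2 CPM in Xbp1KO, against 459.6 and 426.7 CPM in WT of batch 2 (log2 fold change -1.24 ± 0.21, edgeR adjusted p = 0.0190). Spcs2 (Entrez 66624, chromosome 7, 99837569 to 99870340) had 170.4 and 137.2 CPM in Xbp1KO, against 382.4 and 341.1 CPM in WT of batch 2 (log2 fold change -1.23 ± 0.23, edgeR adjusted p = 0.0248). Spcs2 and Spcs3 were both below the WT libraries without overlap. Spcs1 went the other way without passing the test, at 245.2 and 221.0 CPM in Xbp1KO, against 186.6 and 177.9 CPM in WT of batch 2 (log2 fold change 0.35 ± 0.23, adjusted p = 0.408), the highest estimate of the group. Neither catalytic subunit was called: Sec11c had 499.8 and 445.0 CPM in Xbp1KO, against 444.2 and 428.0 CPM in WT of batch 2 (log2 fold change 0.12 ± 0.25), and Sec11a had 32.89 and 29.03 CPM in Xbp1KO, against 39.15 and 35.89 CPM in WT of batch 2 (log2 fold change -0.28 ± 0.20). Hm13, the signal peptide peptidase that clears the cut peptides from the membrane, had 465.0 and 385.1 CPM in Xbp1KO, against 588.5 and 529.3 CPM in WT of batch 2 (log2 fold change -0.39 ± 0.29, adjusted p = 0.475).

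The EMC inserts membrane segments through Emc3 and Emc6, with Emc1 as its large lumenal scaffold and Emc8 and Emc9 as related cytosolic subunits that take the same place. Emc1 (Entrez 230866, chromosome 4, 139352587 to 139378735) had 30.18 and 28.06 CPM in Xbp1KO, against 14.25 and 13.23 CPM in WT of batch 2. It was the only gene of the 36 that rose, with a log2 fold change of 1.08 ± 0.22 (edgeR adjusted p = 0.0300). Emc9 (Entrez 85308, chromosome 14, 55581519 to 55585375) had 0.594 and 0.658 CPM in Xbp1KO, against 1.93 and 1.73 CPM in WT of batch 2, from 61 to 226 reads per library (log2 fold change -1.55 ± 0.35, edgeR adjusted p = 0.0458). Its relative Emc8 had 12.19 and 11.75 CPM in Xbp1KO, against 9.81 and 9.57 CPM in WT of batch 2, an estimate of 0.30 ± 0.19 that did not pass the test. The insertase core had small estimates, with Emc3 at 26.54 and 25.85 CPM in Xbp1KO, against 33.24 and 31.09 CPM in WT of batch 2 (log2 fold change -0.30 ± 0.13, adjusted p = 0.221), and Emc6 with a log2 fold change of 0.19 ± 0.21. Emc10 had 26.19 and 29.40 CPM in Xbp1KO, against 50.22 and 48.57 CPM in WT of batch 2, with no overlap and an adjusted p of 0.0916 (log2 fold change -0.83 ± 0.24). Emc7 had 63.95 and 53.51 CPM in Xbp1KO, against 44.67 and 36.32 CPM in WT of batch 2 (log2 fold change 0.54 ± 0.21, adjusted p = 0.178). Emc2 (-0.23 ± 0.19) and Emc4 (0.19 ± 0.19) completed the list with log2 fold changes close to their standard errors.

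Tail-anchored proteins are delivered by the ATPase Asna1 to a receptor of Wrb and Camlg. Wrb (Entrez 71446, chromosome 16, 96145400 to 96157852) had 1.40 and 1.55 CPM in Xbp1KO, against 4.17 and 5.19 CPM in WT of batch 2, from 144 to 488 reads per library (log2 fold change -1.66 ± 0.24, edgeR adjusted p = 0.0116). Camlg, the other receptor subunit, had 12.06 and 11.50 CPM in Xbp1KO, against 12.30 and 13.32 CPM in WT of batch 2 (log2 fold change -0.12 ± 0.14, adjusted p = 0.664). Asna1 had 23.52 and 23.75 CPM in Xbp1KO, against 27.71 and 23.36 CPM in WT of batch 2, which overlap (log2 fold change -0.11 ± 0.19, adjusted p = 0.776). Among these 3, Wrb alone passed the test.

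Subunits of a complex, and related genes with the same task, were set against each other within each library as a ratio of counts per base of gene length, for pairs chosen after their values were seen. Such a ratio does not depend on how libraries are scaled, and with 2 libraries against 2 an exact 2-sided permutation test cannot go below a p of 0.333, so only the values are given. Ssr4 over Ssr2 was 1.43 and 1.28 in Xbp1KO, against 4.51 and 4.28 in WT of batch 2, and Ssr3 over Ssr1 was 4.67 and 4.34 in Xbp1KO, against 9.98 and 9.31 in WT of batch 2. The balance within the TRAP complex was thus lower for the gamma and delta subunits in both libraries. Spcs3 over Spcs1 was 0.229 and 0.241 in Xbp1KO, against 0.715 and 0.696 in WT of batch 2. Spcs2 over Spcs1 was 0.248 and 0.222 in Xbp1KO, against 0.733 and 0.685 in WT of batch 2. Tram2 over Tram1 was 1.34 and 1.31 in Xbp1KO, against 0.420 and 0.483 in WT of batch 2, so that Tram2 had more reads per base than Tram1 in Xbp1KO and fewer in WT. Sec61b over Sec61a1, within the pore, was 0.456 and 0.460 in Xbp1KO, against 0.630 and 0.634 in WT of batch 2. These ratios also differed between the WT groups. In WT of batch 1 Sec61b over Sec61a1 was 0.995 and 1.03, farther from WT of batch 2 than Xbp1KO was. Spcs3 over Spcs1 was 0.386 and 0.399 in WT of batch 1, and Spcs2 over Spcs1 was 0.526 and 0.461. Sec11c over Sec11a, the catalytic subunits, was 21.96 and 22.16 in Xbp1KO, against 16.40 and 17.24 in WT of batch 2. The same ratio was 8.81 and 9.21 in Blimp1KO, against 15.2 and 16.2 in WT of batch 1, on the other side of its WT libraries. So were Ssr4 over Ssr2, Spcs3 over Spcs1 and Sec61b over Sec61a1, above WT in both Blimp1KO libraries, and Tram2 over Tram1, below WT in both. Ssr3 over Ssr1 lay below WT in both knockouts, and Spcs2 over Spcs1 overlapped WT in Blimp1KO.

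**Figure D3:**
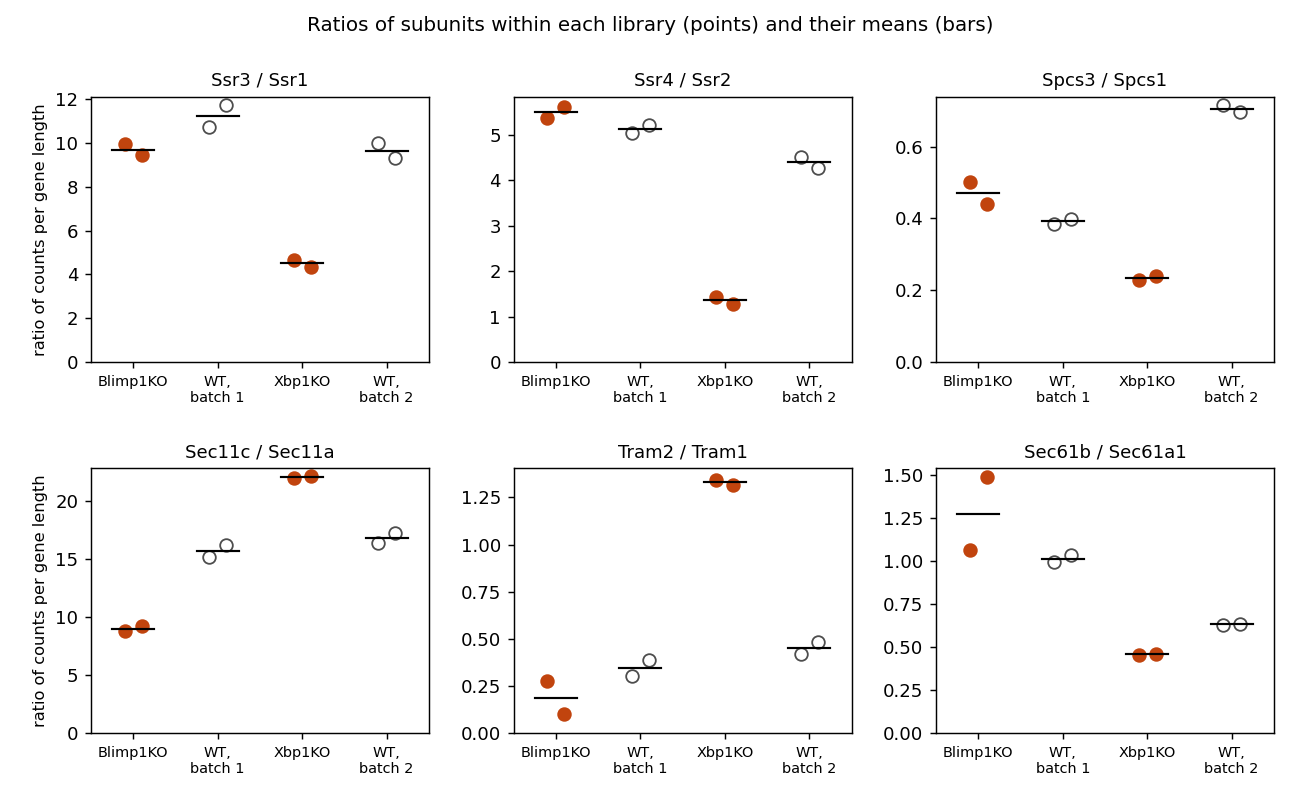
Ratio of reads per base of gene length between related subunits in each library, knockout libraries left of the WT libraries of their batch. Ssr4 over Ssr2 is 1.43 and 1.28 in Xbp1KO, against 4.51 and 4.28 in WT of batch 2, and Sec11c over Sec11a lies below WT in Blimp1KO and above WT in Xbp1KO.

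In Blimp1KO plasma cells none of the 36 genes passed edgeR's quasi-likelihood test, where 0.862% of all genes tested were called, 0.577% higher and 0.285% lower. At an unadjusted p under 0.05 there were 6 (Tram2, Hm13, Srp54a, Srprb, Srpr and Srp68, all lower), or 16.7% of the 36, where 13.9% of all genes tested had such a p. DESeq2 called 3, or 8.33%, where it called 5.68% of all genes tested, and limma-voom called 0. The estimate was lower in 31 of the 36 genes and higher in 5, with a median log2 fold change of -0.28, beside -0.01 over all genes tested. Both Blimp1KO libraries lay below both WT libraries for 20 genes and above both for 1, where 22.1% and 20.9% of all genes tested did so. Group medians were -0.40 for signal recognition, -0.36 for the channel, -0.33 for the peptidase group, -0.05 for the EMC and -0.01 for the tail-anchor group.

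Tram2 had the lowest estimate, at 34.54 and 17.60 CPM in Blimp1KO, against 56.08 and 71.19 CPM in WT of batch 1 (log2 fold change -1.29 ± 0.32, edgeR adjusted p = 0.133). Hm13 had 312.2 and 531.4 CPM in Blimp1KO, against 766.9 and 734.2 CPM in WT of batch 1 (log2 fold change -0.83 ± 0.29, adjusted p = 0.268). Neither gene overlapped its WT libraries, but the Blimp1KO libraries were also far from each other. Srp54a had 4.86 and 3.87 CPM in Blimp1KO, against 6.98 and 7.22 CPM in WT of batch 1, a log2 fold change of -0.70 ± 0.21 with the doubt about its copies given above. The receptor genes were close to each other in estimate, with Srprb at 104.0 and 133.0 CPM in Blimp1KO, against 195.9 and 188.5 CPM in WT of batch 1 (log2 fold change -0.70 ± 0.19, adjusted p = 0.160), and Srpr at 220.5 and 204.4 CPM in Blimp1KO, against 332.9 and 321.7 CPM in WT of batch 1 (log2 fold change -0.62 ± 0.18, adjusted p = 0.182). The pore genes did not stand out: Sec61a1 had a log2 fold change of -0.48 ± 0.22, Sec61b of -0.12 ± 0.27 and Sec61g of -0.06 ± 0.43, the last at 3.44 and 6.15 CPM in Blimp1KO, against 4.42 and 5.59 CPM in WT of batch 1. Srp14, at 69.23 and 101.0 CPM in Blimp1KO, against 96.56 and 79.21 CPM in WT of batch 1, overlapped its WT libraries. Sec11a had the highest estimate of the peptidase group, at 56.50 and 82.11 CPM in Blimp1KO, against 56.35 and 57.79 CPM in WT of batch 1 (log2 fold change 0.28 ± 0.20). Within the EMC, estimates ran from Emc7, at 43.39 and 58.04 CPM in Blimp1KO, against 69.10 and 59.22 CPM in WT of batch 1 (-0.34 ± 0.21), to Emc1, at 8.88 and 13.92 CPM in Blimp1KO, against 9.18 and 8.76 CPM in WT of batch 1 (0.35 ± 0.22). Asna1 had 31.18 and 43.95 CPM in Blimp1KO, against 46.85 and 43.43 CPM in WT of batch 1, and Camlg had 12.63 and 14.43 CPM in Blimp1KO, against 13.88 and 13.21 CPM in WT of batch 1, and both overlapped.

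The Blimp1KO libraries differed from each other more than the members of other groups did. Replicate 2 was above replicate 1 for 29 of the 36 genes, with a median log2 ratio of 0.46, whereas the same median was 0.02 in WT of batch 1, -0.15 in Xbp1KO and -0.10 in WT of batch 2. Across the 36 genes that ratio went with gene length (Spearman's rho of -0.46, and -0.53 over all genes tested, as a description across genes of the same pair of libraries), shorter genes being higher in replicate 2. The part of this in the Blimp1KO estimates was not tested.

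Whether the effect of Xbp1 loss differed from that of Blimp1 loss was tested as the difference of the log2 fold changes, and none of the 36 genes passed (edgeR's quasi-likelihood test), where 1.68% of all genes tested were called, 0.511% higher and 1.17% lower. The lowest adjusted p was 0.0571, for Sec61b, whose log2 fold change in Xbp1KO minus that in Blimp1KO was -2.03 ± 0.39. There were 15 genes at an unadjusted p under 0.05 (41.7%, where 15.9% of all genes tested had one). DESeq2 called 9 of the 36 (25%, where it called 7.83% of all genes), and limma on the deposited FPKM called 5 (13.9%, where it called 2.21% of the genes it tested). Wrb (difference -1.65 ± 0.34, adjusted p = 0.0677) and Tram1 (-1.33 ± 0.33, adjusted p = 0.106) came next, and the highest difference was that of Tram2 (1.22 ± 0.44, adjusted p = 0.235). No single gene's fall was thus shown to be particular to Xbp1KO. The 2 batches also differed in wild type: between WT of batch 2 and WT of batch 1, 32 of the 36 genes had lower estimates, with a median log2 difference of -0.51, beside -0.02 over all genes tested. None of the 36 was called there in edgeR's quasi-likelihood test, where 2.81% of all genes tested were (1.96% higher and 0.843% lower), 17 had an unadjusted p under 0.05 (47.2%, where 27.1% of all genes tested had one), and DESeq2 called 9 (25%, where it called 13.3% of all genes). Batch and genotype are crossed only through the wild type, so each knockout was read against its own batch.

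Levels of different genes were compared on the deposited log2 FPKM, which divides by gene length, as means of 2 libraries. In WT of batch 2 the median log2 FPKM was 8.27 over the peptidase genes, 8.05 over the channel, 6.66 over signal recognition, 4.61 over the EMC and 4.47 over the tail-anchor genes. In Xbp1KO these medians were 7.11, 6.85, 5.85, 4.39 and 4.30 in the same order of groups. Sec11c and Ssr4 were the most abundant per length in WT of batch 2, with 10.67 ± 0.05 and 8.49 ± 0.02 log2 FPKM in Xbp1KO, against 10.42 ± 0.02 and 10.23 ± 0.04 log2 FPKM in WT of batch 2 (SD, n = 2 each). Ssr4 thus stood close to Sec11c in WT and well below it in Xbp1KO, where Spcs1, at 9.24 log2 FPKM, stood above it. Wrb, Emc8, Emc9 and Srp54a were lowest in WT of batch 2, between 2.12 and 2.26 log2 FPKM, and Wrb reached 0.10 ± 0.30 log2 FPKM in Xbp1KO, against 2.12 ± 0.19 log2 FPKM in WT of batch 2. Across the 36 genes the Xbp1KO log2 fold change had a Spearman's rho of -0.23 with the log2 FPKM in WT of batch 2, which shares its WT libraries with the fold change and is given as a description.

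**Figure D4:**
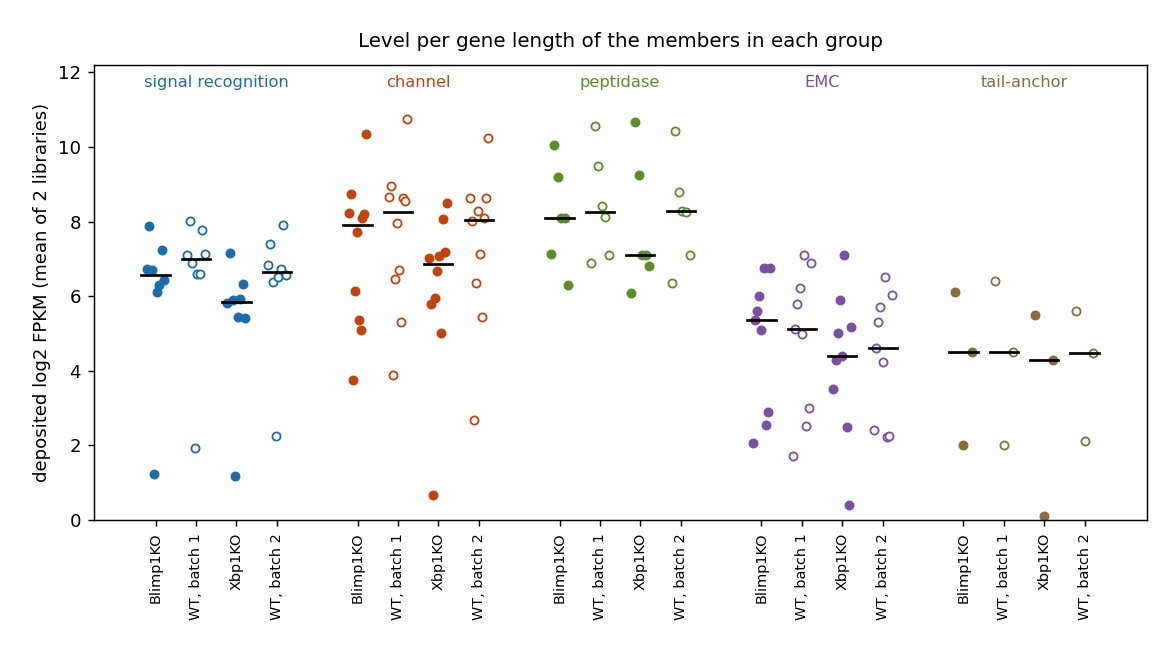
Mean deposited log2 FPKM (a level per gene length) of the 36 genes in each group of 2 libraries, arranged by role, knockouts left of the WT of their batch. Peptidase and channel genes lie highest in WT of batch 2, with medians of 8.27 and 8.05, and the channel median is 6.85 in Xbp1KO.

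Other genes tied to ER entry, some of them acting in the cytosol, were counted from lists drawn up beside the 36. Over all genes tested, edgeR called 5.06% lower and 2.63% higher in Xbp1KO. Of 12 subunits of the oligosaccharyltransferase, which adds sugar chains as proteins pass the pore, 6 fell in Xbp1KO (Rpn1, Magt1, Rpn2, Stt3b, Ddost and Tmem258) and 0 rose, with a median log2 fold change of -0.89. Rpn1, a ribophorin, had 75.60 and 65.25 CPM in Xbp1KO, against 464.9 and 412.9 CPM in WT of batch 2 (log2 fold change -2.64 ± 0.24, edgeR adjusted p = 0.00293). Magt1, which belongs to the oligosaccharyltransferase that acts after the chain has left the pore, fell by 2.08 on the log2 scale, and Rpn2 fell by 1.47. Of 13 paralogs and partners of the 36 genes, 4 fell and 0 rose: Hyou1, a nucleotide exchange factor of the lumenal chaperone BiP, fell by 2.38, Sec63, which brings BiP to the pore, fell by 1.38, Srp54c fell by 1.13, and Sil1, another exchange factor of BiP, fell too. BiP itself, encoded by Hspa5 and named after its value was seen, had 2408 and 1485 CPM in Xbp1KO, against 1748 and 1833 CPM in WT of batch 2, which overlap (log2 fold change 0.12, adjusted p = 0.854). Sec61a2, the paralog of Sec61a1 and also named after its value was seen, was higher without passing the test. Its level was 6.21 and 5.35 CPM in Xbp1KO, against 2.76 and 2.52 CPM in WT of batch 2 (log2 fold change 1.13, edgeR adjusted p = 0.0504). Of 5 genes of cytosolic tail-anchor delivery and the SND route, Tmem208 fell (log2 fold change -1.49, edgeR adjusted p = 0.0262), and of 6 genes of ribosome docking and nascent chain binding, Rrbp1 fell (-1.15, edgeR adjusted p = 0.0485). Of these 12 calls, 3 held without Xbp1KO replicate 1, without Xbp1KO replicate 2 or without WT replicate 3 (Rpn1, Magt1 and Hyou1 each time), 5 without WT replicate 4, 6 without WT replicate 1 or 2, and 0 without Xbp1KO replicate 2 and WT replicate 4 together, with every estimate still below 0. Against all 4 WT libraries pooled Rrbp1, Tmem258 and Srp54c were not called, Srp54c at a log2 fold change of -0.66 (edgeR adjusted p = 0.362). Srp54c was itself higher in WT of batch 2 than in WT of batch 1 (log2 difference 1.17, edgeR adjusted p = 0.0282). None of 8 genes of multipass membrane protein insertion was called by edgeR in Xbp1KO, where 7.7% of all genes tested were. At an unadjusted p under 0.05 there were 3 of the 8, where 23.6% of all genes tested had such a p. Of these, Wdr83os (log2 fold change 0.87) and Ccdc47 (0.41), named after their values were seen, were higher, and Nomo1 was lower. The lowest adjusted p was that of Nomo1 (log2 fold change -0.51, edgeR adjusted p = 0.0869). In Blimp1KO no gene of these 5 lists was called by edgeR's quasi-likelihood test, with 3 of 13, 2 of 12, 2 of 8, 0 of 5 and 5 of 6 at an unadjusted p under 0.05 for the paralogs and partners, the oligosaccharyltransferase, multipass insertion, cytosolic delivery and ribosome docking, where 13.9% of all genes tested had such a p. Of these, Naca (log2 fold change 0.68) and Btf3 (0.55) of ribosome docking, named after their values were seen, were higher and the rest lower. The lowest adjusted p of each list was that of Mmgt1 (log2 fold change -0.44), Magt1 (-0.64), Nomo1 (-0.64), Asna1's partner Get4 (-0.27) and Lrrc59 (-0.77) in Blimp1KO.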

How the data were processed

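RNA was taken from 8 libraries of sorted bone marrow plasma cells by RNeasy Micro extraction and TruSeq RNA library preparation, per the labels' protocols. The deposited series table gives whole-number counts of reads for each Entrez gene, per the file headers, with no normalization. The deposited files of single libraries hold log2 FPKM for 13945 genes, per the file headers, and the gene filter and scaling behind them are not given in the sources used here. Subread, featureCounts, limma and the mouse build GRCm38 (mm10) are named in the submitters' processing notes, without versions or a strand setting, so reads of genes that overlap on the 2 strands cannot be told apart. In batch 1 the FPKM file of replicate 1 matched the count column of replicate 2 and the reverse, in both groups. FPKM was therefore used only as group means and in a fit by group. Replicates are biological per the series' design text, and with no statement of the animals behind each library, p-values measure the spread between these libraries.

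Counts were analysed in R 4.3.3 with edgeR 4.0.16. Genes passing filterByExpr at a minimum count of 10 (15073) were scaled by TMM (factors 0.564 to 2.11), and the quasi-likelihood fit took the 4 groups as its terms and used all 8 libraries, leaving 4 residual degrees of freedom. CPM are on the scaled library sizes. A gene was called at a Benjamini-Hochberg adjusted p under 0.05 over all genes tested, and the standard error is the absolute log2 fold change over the square root of F. The fit was tested on simulated data. DESeq2 1.42.0, limma 3.58.1 (voom, and on FPKM), other scalings and filters, pooled WT, a replicate block and each library left out were the alternatives, and the fit without WT replicate 4 and Xbp1KO replicate 2 and a replicate block in batch 2 were added after seeing the data. Symbols came from the deposited files for 13860 identifiers and from RefSeq (GRCm38.p6) for 11720 more, with 1599 without a symbol. Promoters are RefSeq's, and gene positions are those of GRCm38.p6.

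The 36 genes and the other lists were chosen with earlier results of these data known, so nothing here is independent evidence for their choice. Every one of the 36 is named. Genes past the test and the highest and lowest of each group are given by library. From the other lists, up to 3 called genes with the smallest p are given by value, or the 1 with the smallest p where none was called.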

Additional observations from a re-analysis of the deposited data

Results flagged for a closer look

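Rpn1, a ribophorin subunit of the oligosaccharyltransferase at the channel, had a different response to the loss of Xbp1 and of Blimp1. Its log2 fold change in Xbp1KO minus that in Blimp1KO was -2.16 ± 0.33 (SE, edgeR's quasi-likelihood test of the difference, adjusted p = 0.0322). It had 75.60 and 65.25 CPM in Xbp1KO, against 464.9 and 412.9 CPM in WT of batch 2. In Blimp1KO it had 306.1 and 426.0 CPM, against 493.8 and 529.4 CPM in WT of batch 1. Among the 36 genes of ER entry and the 5 other lists it was the only gene whose difference passed the test. The difference kept its sign in every alternative run, from -2.44 to -1.91. It lost its call in 6 of the 8 fits that leave out 1 library (adjusted p from 0.0762 without Xbp1KO replicate 1 to 0.180 without WT replicate 2) and in the fit without WT replicate 4 and Xbp1KO replicate 2, and was called with either Blimp1KO library left out.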

How the results depend on the processing

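In Xbp1KO, 15 genes of the 36 were called by edgeR, and 15, 20, 15, 15, 14, 15, 16, 15 and 13 under limma-voom, DESeq2, no low-count filter, RLE size factors, immunoglobulin genes left out, the libraries of the batch alone, all 4 WT libraries pooled, limma on log2 FPKM and the replicate block in batch 1. Over all genes tested, edgeR called 7.7%, and the alternatives called 9.77%, 14.7%, 6.63%, 7.6%, 6.6%, 10%, 8.65%, 8.07% and 6.77% in the same order. The signs of the 15 held in all of these and in every fit that leaves a library out, where counts ran from 0 to 19. The 2 pairs of replicate numbers in batch 1 share only a number (correlation of deviations 0.218). With that replicate block 0 of the 36 were called in Blimp1KO, and over all genes 89 were called in Blimp1KO and 1021 in Xbp1KO, against 130 and 1160 without it. The labels number the libraries of batch 2 differently in WT and Xbp1KO, but the file names number both 1 and 2. With a replicate block by those numbers (correlation of deviations 0.513, 2 pairs), chosen after seeing the data, 13 of the 36 and 1072 of all genes were called in Xbp1KO, and 0 and 105 in Blimp1KO. Of the 12 calls from the other lists, Rrbp1 was lost under either block and Tmem258 under that of batch 2.

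Over all genes, calls ran from 59 to 2220 in Xbp1KO and from 0 to 856 in Blimp1KO. Genes of the 36 called in Blimp1KO numbered 3 with DESeq2 (8.33%, beside 5.68% of all genes) and 1 without the filter (2.78%, beside 2.18%). For the difference of effects they were 9 with DESeq2 (25%, beside 7.83% of all genes) and 1 without the filter (2.78%, beside 3.22%). With immunoglobulin genes left out there was 1 (2.78%, beside 2.08%), and with FPKM there were 5 (13.9%, beside 2.21%). Between the WT groups the called genes of the 36 were 9 with DESeq2 (25%, beside 13.3% of all genes) and 5 without the filter (13.9%, beside 7.02%).

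Against all 4 WT libraries pooled, which mixes batches, the median of the 36 was -0.0262 in Blimp1KO and -0.70 in Xbp1KO. The peptidase median was then -0.05 in Blimp1KO and -0.62 in Xbp1KO, and in Xbp1KO the EMC median was -0.24 and the tail-anchor median -0.58. With a library left out, medians ran from -0.48 to -0.0226 over the 36, -0.49 to -0.35 over signal recognition, -0.58 to -0.12 over the channel and -0.25 to 0.31 over the EMC in Blimp1KO. In Xbp1KO they ran from -0.60 to -0.46 over the 36, -1.17 to -0.85 over signal recognition, -1.62 to -1.44 over the channel, -0.53 to -0.20 over the peptidase group, -0.01 to 0.27 over the EMC and -0.24 to -0.09 over the tail-anchor group. Without WT replicate 4 and Xbp1KO replicate 2 together, 0 genes were called in Xbp1KO and its EMC and tail-anchor medians were 0.30 and -0.24.

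Changes of sign were among genes that no fit of that comparison had called. In Blimp1KO, the Wrb estimate was 0.0061 with DESeq2, 0.0059 with RLE, 0.0143 with immunoglobulin genes left out, 0.0302 in the batch alone and 0.0335 without both libraries, and Camlg 0.0182, 0.0181, 0.0279, 0.0417 and 0.0453 in the same settings, 0.0063 without the filter and 0.0388 with pooled WT. With pooled WT, Blimp1KO estimates of further genes were above 0: Srp14 0.25, Srp19 0.10, Sec61b 0.32, Sec61g 0.38, Spcs1 0.12, Spcs3 0.0281, Emc3 0.0675, Emc4 0.0576, Emc9 0.21, Emc10 0.35 and Asna1 0.0888. In Xbp1KO with pooled WT, Tram2 was at 0.0958, Sec11c at -0.16, Spcs1 at -0.25, Emc4 at -0.10 and Emc6 at -0.24, and without both libraries Tram2 was at 0.0490 and Emc2 at 0.13. With 1 library left out the Blimp1KO estimates crossed 0 for Asna1 (-0.53 to 0.0100), Camlg (-0.0962 to 0.14), Emc1 (-0.0108 to 0.68), Emc10 (-0.45 to 0.32), Emc4 (-0.44 to 0.0756), Emc6 (-0.21 to 0.47), Emc8 (-0.25 to 0.31), Emc9 (-0.48 to 0.28), Sec11a (-0.0103 to 0.57), Sec61b (-0.61 to 0.30), Sec61g (-0.54 to 0.35), Spcs3 (-0.25 to 0.15), Srp14 (-0.34 to 0.25), Srp19 (-0.38 to 0.11), Srp9 (-0.65 to 0.0158) and Wrb (-0.0948 to 0.0816). The Xbp1KO estimates did so for Asna1 (-0.24 to 0.0120), Emc4 (-0.0149 to 0.34), Sec11c (-0.0468 to 0.22) and Tram2 (-0.30 to 0.11). The cause of these changes was not tested. With 2 libraries a group, a gene that was not called may still have changed.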
